A study of Mus musculus with 9 samples.

Results

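The E2 ubiquitin-conjugating enzymes of the mouse were followed in 8-cell embryos. All genes were taken whose symbol reads *Ube2*, a letter, an optional digit and an optional a or b, which gave 34 genes of the 55335 listed in every library. The rule used the symbols and no measured value. RNA was measured in embryos of ICR mice that had been fertilised in vitro and injected as zygotes with siRNA, a short RNA that directs the decay of its target transcript. Control embryos had received a nontargeting siRNA, MFN1-KD embryos siRNA against *Mfn1*, which encodes the mitochondrial outer-membrane fusion protein mitofusin 1, and H3.3-KD embryos siRNAs against both *H3f3a* and *H3f3b*, which encode the replication-independent histone H3.3. Each group had 3 libraries, and each library was made from a pool of embryos (5 to 10 by the labels) by Smart-Seq2, which reverse-transcribes polyadenylated RNA from an oligo-dT primer before PCR. The study used these libraries to ask which transcripts depend on MFN1 and on H3.3 at this stage. The age of the mothers of these embryos is not given in the sources used here, and whether the 3 pools of a group came from separate injection days is not given either, so that p-values measure only the spread between these pools.

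Ubiquitin is passed to a protein in a cascade: an E1 enzyme activates it, an E2 carries it on an active-site cysteine, and an E3 ligase brings the loaded E2 to the substrate. The E2 often decides which lysine of ubiquitin the chain grows from, and with it whether the protein is sent to the proteasome or put to another use. In cleaving embryos the system is known for clearing maternal proteins and for driving each mitosis through the anaphase-promoting complex (APC/C), an E3 that works with the E2s UBE2C and UBE2S.

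The promoters of the 4 E2 genes on which most of the following turns are shown first. They are RefSeq windows of the GRCm38.p6 assembly, from 250 bases before to 50 bases after the transcription start, 5′ to 3′ on the strand of the gene. The start is that of RefSeq and can differ from the gene ends given below, which are those of GENCODE. The *Ube2s* and *Ube2l3* windows lie wholly inside the GENCODE spans of these genes. Which start the embryos use was not tested. Capitals mark matches on either strand to CCAAT (the CCAAT box), TTTGAA (a letter pattern of cell cycle gene promoters), GGGCGG (the GC box) and TATAAA (the TATA box). *Ube2c* lies on the plus strand at chr2:164769679-164769978, *Ube2s* on the minus strand at chr7:4812291-4812590, *Ube2v1* on the minus strand at chr2:167631956-167632255 and *Ube2l3* on the minus strand at chr16:17201443-17201742.
Ube2c: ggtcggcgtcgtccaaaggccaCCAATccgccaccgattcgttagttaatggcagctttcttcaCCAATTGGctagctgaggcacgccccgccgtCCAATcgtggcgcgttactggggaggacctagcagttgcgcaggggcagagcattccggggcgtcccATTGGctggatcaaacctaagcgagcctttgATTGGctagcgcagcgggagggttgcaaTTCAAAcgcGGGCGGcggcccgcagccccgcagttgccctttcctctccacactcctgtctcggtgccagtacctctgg
Ube2s: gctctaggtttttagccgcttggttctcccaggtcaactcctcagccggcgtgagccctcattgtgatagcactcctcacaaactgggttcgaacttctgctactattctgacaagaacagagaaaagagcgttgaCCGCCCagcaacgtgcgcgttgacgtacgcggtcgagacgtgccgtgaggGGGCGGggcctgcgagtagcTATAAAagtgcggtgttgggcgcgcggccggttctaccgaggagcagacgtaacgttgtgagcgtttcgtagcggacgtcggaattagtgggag
Ube2v1: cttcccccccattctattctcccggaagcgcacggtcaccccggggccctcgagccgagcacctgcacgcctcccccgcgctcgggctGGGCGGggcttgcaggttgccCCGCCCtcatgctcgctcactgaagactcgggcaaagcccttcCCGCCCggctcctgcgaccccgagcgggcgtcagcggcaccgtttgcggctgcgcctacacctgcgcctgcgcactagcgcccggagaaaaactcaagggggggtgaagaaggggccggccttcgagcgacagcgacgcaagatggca
Ube2l3: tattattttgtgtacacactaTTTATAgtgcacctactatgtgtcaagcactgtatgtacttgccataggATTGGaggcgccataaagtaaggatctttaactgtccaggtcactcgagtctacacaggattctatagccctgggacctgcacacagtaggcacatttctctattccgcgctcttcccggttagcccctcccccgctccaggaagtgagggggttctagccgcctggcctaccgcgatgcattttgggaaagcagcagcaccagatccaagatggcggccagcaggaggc
The *Ube2c* window held 8 matches, 6 of them to CCAAT, where a forward and a reverse match overlapped, with the TTTGAA match on the reverse strand starting 29 bases before the start and the GGGCGG match starting 20 bases before it. The *Ube2s* window held no CCAAT and no TTTGAA. It held GGGCGG in each orientation and a TATAAA that began 44 bases before the start. The *Ube2v1* window held 3 GGGCGG matches and was the richest of the 4 in G and C (70.3%), whereas the *Ube2l3* window, at 52.0% GC and 10 CpG, held 1 CCAAT match and 1 TATAAA match, both on the reverse strand. Windows were found for 26 of the 34 E2 genes (37 windows in all). GGGCGG was present in 28 of these 37 windows (75.7%), against 35.7% of all 32851 windows of the mouse genome, and the median GC content was 68.7% against 52.7%. CCAAT was present in 21.6% of E2 windows and 37.4% of all windows, TTTGAA in 10.8% and 17.9%, and TATAAA in 8.11% and 13.6%. By gene, 22 of the 26 E2 genes with a window held GGGCGG. Of the 13 E2 genes that were higher in H3.3-KD, 10 had a window, and all 10 held it. Most E2 genes with a window held it, so this does not set the higher genes apart. The share by gene over all genes was not computed. A match is a description of the letters only and is no measure of binding.

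The values are FPKM, which scale the sequenced fragments of a gene to its length and to the size of the library, and fold changes are differences of log2(FPKM + 1), a scale that understates the change of low genes. Genes averaging 1 FPKM or more across all libraries (13011, including 31 E2 genes) entered 1 limma model. In bulk RNA, fewer cells of a type and less RNA per cell cannot be told apart. *Mfn1* was lower in the MFN1-KD libraries (log2 fold change -2.66 ± 0.58, SE, adjusted p = 0.0431, limma with Benjamini-Hochberg adjustment), and *H3f3a* and *H3f3b* were lower in the H3.3-KD libraries (-3.69 ± 0.20 and -3.64 ± 0.21, adjusted p = 7.23e-06 and 8.96e-06). The number of genes above 0 FPKM differed by group, with 21643 to 22507 per library in control, 15577 to 20842 in MFN1-KD and 23655 to 24820 in H3.3-KD. The groups did not overlap, and MFN1-KD replicate 3 had the fewest. The 7 markers of 8-cell embryos were above 0 FPKM in every library, with a summed level of 10613 to 14295 FPKM in control, 10730 to 14849 in MFN1-KD and 4446 to 6668 in H3.3-KD. All 9 cumulus and granulosa cell markers stayed under 1 FPKM in every library, and the 5 sperm markers summed to at most 2.93 FPKM in any library. The lower sum in H3.3-KD was that of *Dppa5a* (12791 ± 2114 FPKM in control and 5322 ± 1071 in H3.3-KD). Of the 7 embryo markers, 4 lay above every control library in H3.3-KD, 2 lay below and 1 overlapped. In MFN1-KD, *Tfap2c* and *Klf5* lay above every control library and the other markers overlapped control, except *Pou5f1*. *Pou5f1* lay below, with 0.3 to 3.68 FPKM in MFN1-KD and 5.1 to 8.9 in control. The part of these shifts in the E2 differences was not tested.

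Control 8-cell embryos expressed E2 transcripts over a wide range. Of the 34 genes, 10 had a mean of at least 100 FPKM in control, 14 lay between 10 and 100, 6 between 1 and 10, and 4 below 1. The 34 genes summed to 4802 ± 313 FPKM (SD, n = 3) in control, 4973 ± 180 after MFN1-KD and 5170 ± 308 after H3.3-KD, and the groups overlapped. The FPKM of all listed genes did not sum to the same total in each group. That total was 1113563 to 1331977 in control, 1130408 to 1203650 in MFN1-KD and 933452 to 968604 in H3.3-KD. Equal E2 sums are therefore not equal shares of a library, and the part of this shift in the H3.3-KD calls was not tested. The highest was *Ube2l3*, whose product works with HECT and RING-between-RING ligases, at 1158, 1514 and 1620 FPKM in the control libraries. *Ube2d3*, a member of the UBE2D family that serves many RING ligases, followed at 544, 664 and 777 FPKM, and *Ube2c*, the APC/C E2 that starts chains, at 514, 552 and 523. In control, every *Ube2l3* value lay above every value of any other E2 gene, while the ranges of *Ube2d3* and *Ube2c* overlapped. At the other end, *Ube2d4*, annotated as a processed pseudogene, was listed at 0 in all 9 libraries. *Ube2d1*, another member of the UBE2D family, had 0.61, 0.4 and 0.81 FPKM in control, *Ube2d2b* 1.31, 0.14 and 0.47, and *Ube2e2* 0.63, 0.63 and 1.15, and these 3 overlapped.

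**Figure D1:**
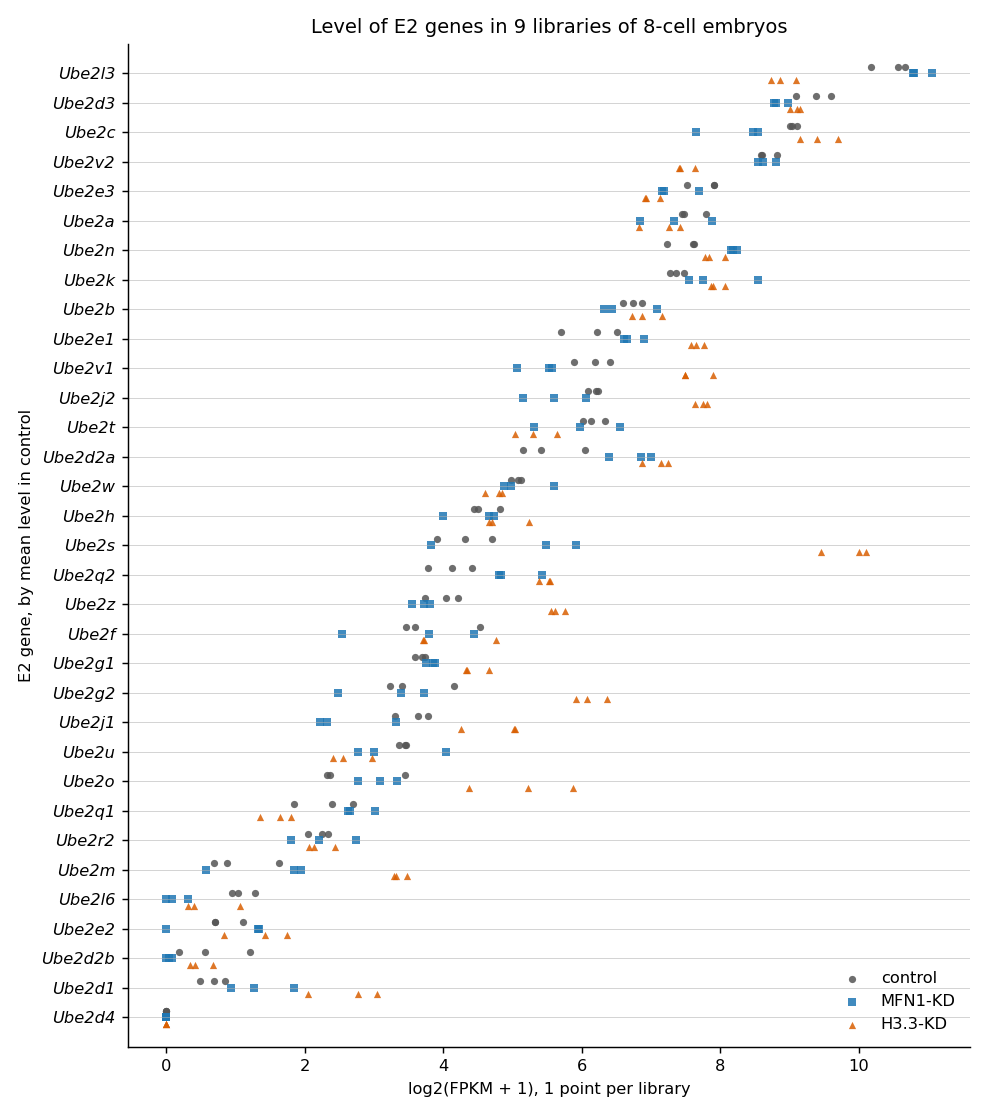
Level of all but 1 of the 34 E2 genes in each of the 9 libraries, as log2(FPKM + 1) on the horizontal axis, with genes ordered by their mean in control and 1 point per library in the colour and marker of its group. *Ube2l3* stands highest in control (1431 ± 242 FPKM) and *Ube2d4* is at 0 throughout, and the H3.3-KD points of *Ube2s* lie far from its control points.

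In MFN1-KD few E2 transcripts passed the test, as was the case over all genes. *Ube2d2a* was higher, and the chain-initiating *Ube2c* and the K63 partner *Ube2v1* lay below control in every library without passing the test. In limma, 1 of the 31 tested genes was higher at an adjusted p under 0.05, where 1.15% of all tested genes were higher, and 0 were lower, where 2.2% of all genes were. At an unadjusted p under 0.05, 5 E2 genes were higher and 5 lower, against 9.21% and 14.04% of all genes. At the threshold of the study's methods, more than 2-fold with an unadjusted p under 0.05, 1 E2 gene was higher and 0 were lower, against 5.02% and 9.05% of all genes. At that threshold 2 were higher without control replicate 1 or without any 1 of the MFN1-KD replicates 1, 2 and 3, and 1 was lower without control replicate 3 or MFN1-KD replicate 2. In 8 genes every MFN1-KD library lay above every control library and in 4 every one lay below, against 11.4% and 16.8% of all genes. The median log2 fold change was -0.02 over the E2 genes and -0.08 over all genes.

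The gene called higher in MFN1-KD was *Ube2d2a* (ENSMUSG00000091896.8), a broad-acting member of the UBE2D family. It had 65.2, 41.7 and 34.5 FPKM in control and 83.1, 127 and 114 FPKM in MFN1-KD. The groups did not overlap, and the log2 fold change was 1.21 ± 0.28 (SE, adjusted p = 0.0477, limma). The call rested close to the threshold: the adjusted p rose to 0.0515, 0.178 and 0.193 without control replicates 1, 2 and 3, to 0.0743 and 0.0826 without MFN1-KD replicates 2 and 3, and to 0.0742, 0.0769 and 0.0517 without H3.3-KD replicates 1, 2 and 3. After removal of the trend of each library over GC content and transcript length, its log2 fold change was 0.71 (adjusted p = 0.111).

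Among E2 genes that did not pass in MFN1-KD, the nearest to the threshold were *Ube2n*, the E2 of K63-linked chains, with 195, 149 and 193 FPKM in control and 300.5, 285 and 290 in MFN1-KD (0.71 ± 0.19, adjusted p = 0.069), and *Ube2q2*, with 20.3, 12.7 and 16.5 FPKM in control and 26.9, 27.6 and 41.8 in MFN1-KD (0.91 ± 0.27, adjusted p = 0.0868). In both, the groups did not overlap. *Ube2c* had 353, 372 and 199 FPKM in MFN1-KD, all below its control libraries (-0.83 ± 0.26, adjusted p = 0.0932). *Ube2v1*, an E2 variant without the active-site cysteine that pairs with UBE2N, had 46.5, 45.2 and 32.5 FPKM in MFN1-KD against 83.5, 72.2 and 58.2 in control (-0.77 ± 0.24, adjusted p = 0.0979). The gene nearest the threshold in each other role was further from it. *Ube2j1*, of the ER membrane, had 4.01, 8.94 and 3.67 FPKM in MFN1-KD (-0.95 ± 0.37, adjusted p = 0.163), *Ube2z* 12.2, 10.7 and 13.03 FPKM (-0.31 ± 0.25, adjusted p = 0.486) and *Ube2a* 113, 161 and 235 FPKM (-0.23 ± 0.28, adjusted p = 0.677). The log2 fold changes of all 30 genes that did not pass lay between -0.95 and 0.91, 14 above 0 and 16 below.

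H3.3-KD moved more of them, and mostly upward. The APC/C chain-elongating E2 *Ube2s* rose from a minor transcript to the most abundant E2, the ER-associated E2s *Ube2g2*, *Ube2j1* and *Ube2j2* rose, and *Ube2l3*, *Ube2v2* and *Ube2e3* fell. In limma, 13 of 31 E2 genes were higher at an adjusted p under 0.05 (41.9%, against 21.8% of all tested genes). Another 3 were lower (9.68%, against 9.12%). At the study's threshold the counts were 12 higher and 2 lower, against 23.9% and 9.39% of all genes. The limma shares depended on expression level. Among genes averaging 100 FPKM or more across all libraries, 17.6% were higher and 31.5% lower. Of the 14 E2 genes there, 4 were higher and 3 lower. Among less abundant genes, 22.3% were higher and 6.49% lower, and of the 17 E2 genes there 9 and 0. Split by control level alone, the 3 falls were among the 10 E2 genes reaching 100 FPKM and the 13 rises among the other 21. The shares of all genes in that split were not computed. Control values enter both the split and the fold change, so the separation is a description and no trait of the E2 genes. Every H3.3-KD library lay above every control library in 16 E2 genes and below in 9, against 34.5% and 18.9% of all genes. The median log2 fold change was 0.41 over the E2 genes, from -1.58 to 5.54, and 0.26 over all genes. Scaling the libraries by median ratios moved the median of all genes to -0.00 and the split of E2 calls to 11 higher and 5 lower, upper-quartile scaling gave 11 and 7, and without MFN1-KD replicate 3 there were 14 and 5.

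**Figure D2:**
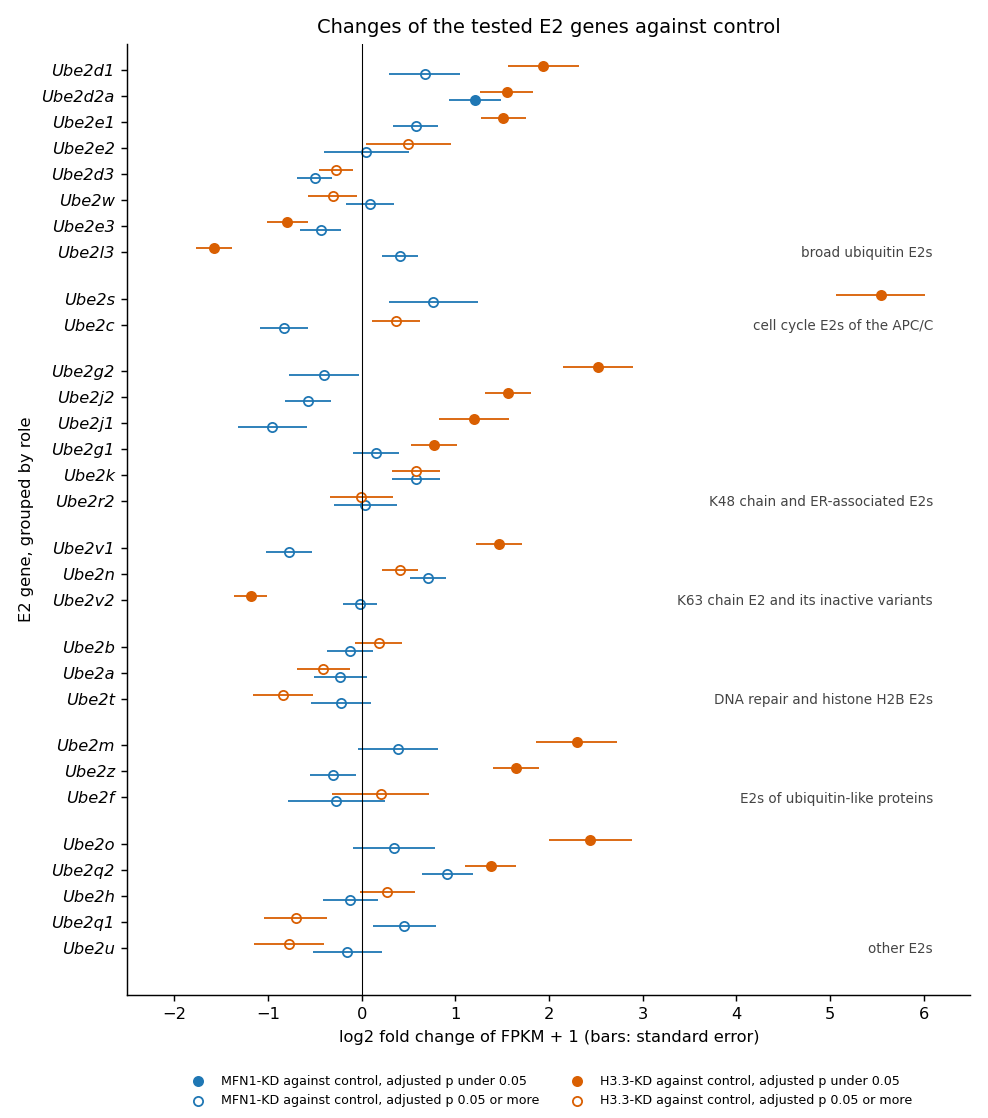
Log2 fold change of FPKM + 1 against control (horizontal axis) with its standard error (bars) for all but 1 of the 31 tested E2 genes, grouped by role, in MFN1-KD (blue) and H3.3-KD (orange), with filled points for an adjusted p under 0.05. *Ube2s* lies furthest out at 5.54 in H3.3-KD, *Ube2l3* lies lowest at -1.58, and the only filled MFN1-KD point is *Ube2d2a* at 1.21.

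The largest rise of any E2 gene was in an E2 of the APC/C. UBE2C places the first ubiquitins on APC/C substrates such as cyclin B and securin, and UBE2S extends them into K11-linked chains. *Ube2s* (ENSMUSG00000060860.8, chromosome 7, 4794546 to 4812590, GRCm38, minus strand) had 25.1, 14.02 and 18.9 FPKM in control and 1029, 701 and 1095 FPKM in H3.3-KD. The lowest H3.3-KD library was far above the highest control library. Its log2 fold change was 5.54 ± 0.48 (SE, adjusted p = 7.59e-05, limma), a 46.7-fold rise and the 7th largest rise among the 13011 genes. In MFN1-KD it had 43.6, 59.7 and 13.2 FPKM, a spread wider than that of control (0.77 ± 0.48, adjusted p = 0.368). Without MFN1-KD replicate 3, the lowest of these, the log2 fold change was 1.39 (adjusted p = 0.048). *Ube2s* shares 183 exon bases, 3.56% of its own, with *Rpl28* on the opposite strand. *Rpl28* stood at 772 ± 44.8 FPKM in control and 893 ± 150 in H3.3-KD.

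*Ube2c* (ENSMUSG00000001403.13, chromosome 2, 164769898 to 164778822, plus strand) had 834, 669 and 567 FPKM in H3.3-KD, all above its control libraries, and the difference did not pass (0.36 ± 0.26, adjusted p = 0.307). The ratio of *Ube2s* to *Ube2c* was 0.0254 to 0.0487 in control, 0.0665 to 0.160 in MFN1-KD and 1.05 to 1.93 in H3.3-KD. *Ube2c* was thus the more abundant of these E2s in every control and MFN1-KD library and the less abundant in every H3.3-KD library.

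Among the APC/C's own subunits and regulators, 17 tested genes, 7 rose and 5 fell in H3.3-KD, where 21.8% of all genes rose and 9.12% fell. *Anapc7*, a subunit of its scaffold arm, rose from 43.6 ± 6.94 to 232 ± 55.1 FPKM (log2 fold change 2.37, adjusted p = 0.000205). *Anapc10*, which helps to bind substrates, fell from 379 ± 35.3 to 131 ± 11.6 FPKM (-1.53, adjusted p = 0.000396). *Cdc20*, the mitotic activator of the APC/C, was chosen after its values were seen, and stood at 360 ± 82.8 FPKM in control, 166 ± 78.2 after MFN1-KD and 844 ± 19.3 after H3.3-KD. Its rise in H3.3-KD passed (1.25, adjusted p = 0.00975) and its MFN1-KD difference did not (-1.19, adjusted p = 0.0571). In MFN1-KD, 0 of the 17 were called in limma, with 1 higher and 3 lower at an unadjusted p under 0.05, where 9.21% of all genes were higher and 14.04% lower.

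The broad ubiquitin E2s changed in both directions in H3.3-KD, 3 of 8 higher and 2 lower, where 21.8% of all genes were higher and 9.12% lower. *Ube2l3* (ENSMUSG00000038965.17, chromosome 16, 17152013 to 17202649, minus strand) had 464, 543 and 424 FPKM in H3.3-KD. These values lay below every control library, and the log2 fold change was -1.58 ± 0.19 (adjusted p = 0.000326, limma). In MFN1-KD it had 2131, 1773 and 1760 FPKM, above every control library, and the difference did not pass (0.41 ± 0.19, adjusted p = 0.226). *Ube2l3* shares 28.6% of its exon bases with *Ydjc* on the opposite strand, which was at most 23.8 FPKM in any library.

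*Ube2e1* and *Ube2e3* encode closely related E2s that carry an N-terminal extension, and their transcripts changed in opposite directions in H3.3-KD. *Ube2e1* (chromosome 14, 18282722 to 18331859, minus strand) had 90.3, 73.7 and 51.3 FPKM in control and 216, 200.2 and 189 FPKM in H3.3-KD (1.51 ± 0.24, adjusted p = 0.00126). *Ube2e3* had 239, 183 and 239 FPKM in control and 139, 119.6 and 120.1 FPKM in H3.3-KD (-0.79 ± 0.22, adjusted p = 0.0206). The groups did not overlap in either gene. The ratio of *Ube2e1* to *Ube2e3* was 0.214 to 0.402 in control, 0.578 to 0.703 in MFN1-KD and 1.55 to 1.67 in H3.3-KD. The fall of *Ube2e3* did not pass without control replicate 1 or 3 (adjusted p = 0.0597 and 0.0815) or without H3.3-KD replicate 2 or 3 (0.0687 and 0.0528). *Ube2e1* shares 16.1% of its exon bases with *Nkiras1* on the opposite strand, which had 54.0 to 96.5 FPKM.

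The UBE2D family also split by member. *Ube2d2a* had 141, 151 and 115 FPKM in H3.3-KD, above every control library (1.55 ± 0.28, adjusted p = 0.0026). *Ube2d1* rose from its low control level to 7.23, 5.81 and 3.12 FPKM (1.94 ± 0.38, adjusted p = 0.00386), and with a pseudocount of 0.1 in place of 1 its log2 fold change was 2.92. *Ube2d3*, the most abundant of the family, had 551, 566 and 511 FPKM, which overlapped control (-0.27, adjusted p = 0.289). Per 1 unit of *Ube2d3*, *Ube2d2a* stood at 0.0444 to 0.120 in control, 0.190 to 0.255 in MFN1-KD and 0.226 to 0.266 in H3.3-KD. Rows with related names lay outside the symbol rule. *Ube2dnl1* had 35.85 to 58.43 FPKM in control, 15.94 to 41.84 in MFN1-KD and 4.61 to 21.87 in H3.3-KD, and *Ube2d-ps* 2.04 to 10.7 over the 9 libraries. Whether reads were divided between these rows and the UBE2D genes was not tested.

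Of the E2s known for K48-linked chains or for work at the endoplasmic reticulum (ER), 4 of 6 rose in H3.3-KD. Of all genes, 21.8% rose. *Ube2g2* (chromosome 10, 77622275 to 77645993, plus strand), which serves the ER-associated degradation of misfolded proteins, had 16.8, 9.55 and 8.37 FPKM in control and 66.7, 81.0 and 59.1 FPKM in H3.3-KD. The groups lay far apart (2.52 ± 0.38, adjusted p = 0.000915, limma). *Ube2j2*, an E2 anchored in the ER membrane, had 72.5, 74.3 and 66.8 FPKM in control and 223, 198 and 215 FPKM in H3.3-KD (1.56 ± 0.25, adjusted p = 0.00129). The other ER-anchored E2, *Ube2j1*, had 11.5, 12.7 and 8.84 FPKM in control and 31.8, 31.5 and 18.1 FPKM in H3.3-KD (1.20 ± 0.37, adjusted p = 0.0328). In both, every H3.3-KD library exceeded every control library. *Ube2g1*, an E2 of cullin-RING ligases, rose less, from 11.9, 12.3 and 11.1 FPKM to 19.4, 24.3 and 19.0 FPKM (0.77 ± 0.25, adjusted p = 0.0356).

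The smaller of these rises were less secure. *Ube2j1* did not pass without control replicate 1, 2 or 3 (adjusted p = 0.0667, 0.0688 and 0.121) or H3.3-KD replicate 1 or 2 (0.102 and 0.111). It was also lost with median-ratio scaling, with upper-quartile scaling, with no filter and with the GC and length trend removed. *Ube2g1* did not pass without control replicate 1, 2 or 3 (0.0616, 0.0979 and 0.11) or H3.3-KD replicate 1 or 2 (0.0689 and 0.136). It was also lost under either other scaling (0.194 and 0.258), with no filter, and with the replicate number as a block (0.0652). In MFN1-KD, 0 of these 6 E2s were called in limma, with 1 higher and 2 lower at an unadjusted p under 0.05. Of all genes, 9.21% were higher and 14.04% lower at that unadjusted p. The levels of *Ube2j2* there, 47.2, 65.7 and 34.6 FPKM, lay below every control library (-0.57 ± 0.25, adjusted p = 0.197).

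K63-linked chains, which act in DNA damage tolerance and in signalling, are built by UBE2N together with UBE2V1 or UBE2V2, which lack the catalytic cysteine. In H3.3-KD these 2 partner transcripts moved in opposite directions. *Ube2v1* (ENSMUSG00000078923.10, chromosome 2, 167607638 to 167632095, minus strand) rose from 83.5, 72.2 and 58.2 FPKM to 179.4, 179.4 and 237 FPKM (1.47 ± 0.24, adjusted p = 0.00168, limma). *Ube2v2* (ENSMUSG00000022674.15, chromosome 16, 15552077 to 15595773, minus strand) fell from 383, 389 and 452 FPKM to 198, 168 and 171 FPKM (-1.18 ± 0.18, adjusted p = 0.000981). The groups did not overlap in either gene. In MFN1-KD *Ube2v2* had 374, 447 and 390 FPKM, overlapping control (-0.02, adjusted p = 0.98). The ratio of *Ube2v1* to *Ube2v2* was 0.129 to 0.218 in control, 0.0832 to 0.125 in MFN1-KD and 0.908 to 1.39 in H3.3-KD.

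*Ube2n* itself had 266, 227 and 219 FPKM in H3.3-KD, above every control library, without passing (0.41 ± 0.19, adjusted p = 0.127). It stood at 2.06 to 3.32 times *Ube2v1* in control, 6.31 to 8.92 times in MFN1-KD and 0.925 to 1.48 times in H3.3-KD. A related row, the pseudogene *Ube2n-ps1*, had 80.04 to 177 FPKM over the 9 libraries, so that reads of *Ube2n* may have been divided between them. *Ube2v1* shares 61.5% of its exon bases with *Gm20431*, which was at most 0.06 FPKM.

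**Figure D3:**
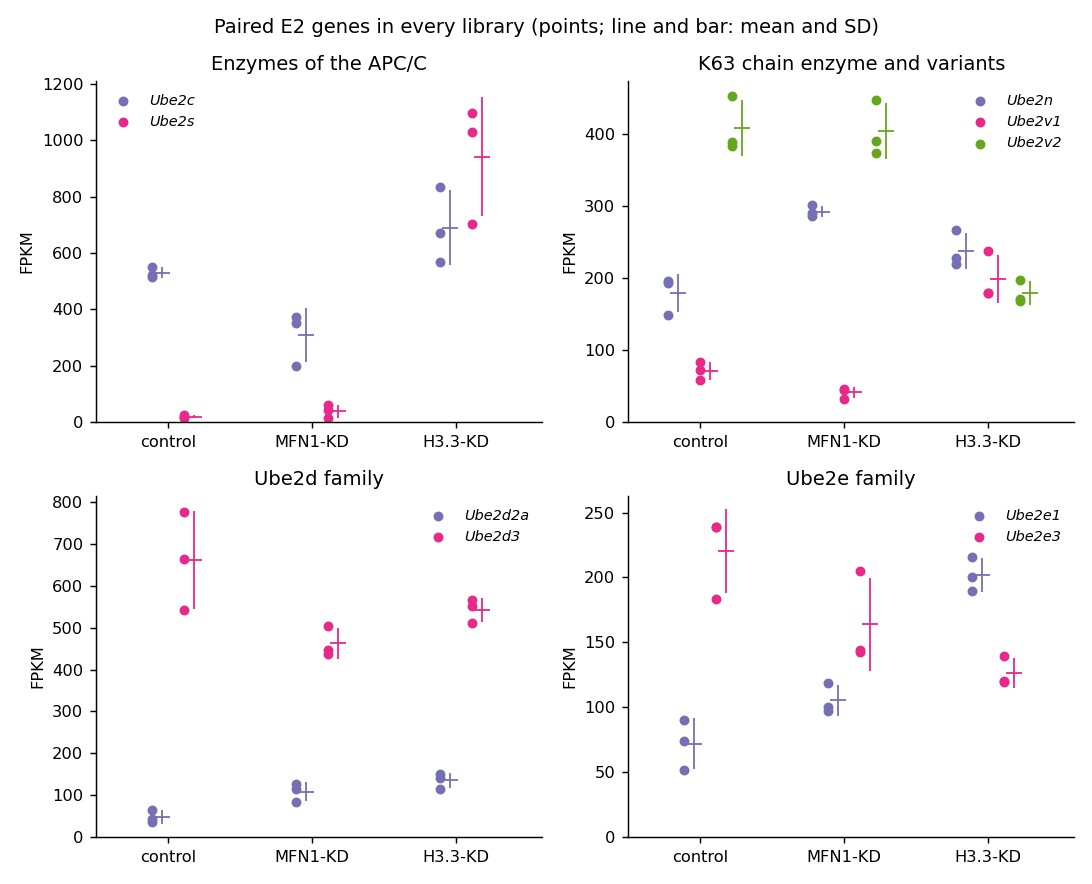
FPKM (vertical axes, from 0) of related E2 genes in every library of control, MFN1-KD and H3.3-KD, 1 point per library, with a line and bar for the mean and SD. *Ube2s* climbs to 942 ± 211 FPKM in H3.3-KD while *Ube2c* reaches 690 ± 134, and *Ube2v1* reaches 198 ± 33.02 while *Ube2v2* drops to 179 ± 16.3.

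Of the 3 E2s of DNA repair and histone H2B ubiquitination, 0 passed in H3.3-KD in limma. Of all genes, 21.8% were higher and 9.12% lower. At an unadjusted p under 0.05, 1 of the 3 E2s was lower, where 13.2% of all genes were. That gene was *Ube2t*, the E2 of the Fanconi anaemia pathway, with 69.1, 63.8 and 79.9 FPKM in control and 38.1, 32.0 and 49.1 FPKM in H3.3-KD (-0.84 ± 0.32, adjusted p = 0.07). Its groups did not overlap, and without MFN1-KD replicate 2 or 3 it passed (adjusted p = 0.0406 and 0.0214). It also passed with median-ratio scaling (0.0107), with upper-quartile scaling (0.00953), in the fit of the 6 libraries alone (0.0205) and with the GC and length trend removed (0.0186). *Ube2a*, which with its paralog *Ube2b* ubiquitinates histone H2B and PCNA, had 174, 221 and 178 FPKM in control and 152, 112 and 170 in H3.3-KD (-0.41, adjusted p = 0.3).

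The E2s of ubiquitin-like proteins behaved unevenly, 2 of 4 being higher in H3.3-KD, where 21.8% of all genes were. *Ube2z*, which receives ubiquitin or FAT10 from the E1 UBA6, had 17.6, 15.5 and 12.3 FPKM in control and 47.96, 53.4 and 46.1 FPKM in H3.3-KD (1.64 ± 0.25, adjusted p = 0.000943, limma). *Ube2m*, one of the NEDD8 E2s, rose from 2.1, 0.84 and 0.61 FPKM to 10.2, 9.0 and 8.78 FPKM (2.30 ± 0.43, adjusted p = 0.00313). In both the groups were well apart. The other NEDD8 E2, *Ube2f*, overlapped control with 26.2, 12.02 and 12.3 FPKM. *Ube2l6*, the E2 of ISG15, was at most 1.44 FPKM in any library and was not tested.

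Of the remaining 5 E2s, *Ube2o* and *Ube2q2* were higher in H3.3-KD, where 21.8% of all genes were. *Ube2o*, a large enzyme that acts as E2 and E3 together, had 9.97, 4.02 and 4.15 FPKM in control and 19.8, 36.2 and 57.7 FPKM in H3.3-KD, with no overlap and a wide spread (2.44 ± 0.44, adjusted p = 0.00257, limma). *Ube2q2* rose to 45.6, 40.8 and 45.2 FPKM (1.38 ± 0.27, adjusted p = 0.00401). The 15 genes that did not pass in H3.3-KD had log2 fold changes between -0.84 and 0.58, with 7 above 0 and 8 below.

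Across the 31 genes, Spearman's rho between the log2 fold change and the GC content of the transcript was 0.35 for H3.3-KD and -0.31 for MFN1-KD, as a description over genes that share their libraries. After removal of the GC and length trend, 10 E2 genes were higher and 6 lower, and the log2 fold changes of *Ube2g2*, *Ube2z*, *Ube2j2*, *Ube2o*, *Ube2m* and *Ube2v1* shrank to 1.74, 0.89, 0.84, 1.29, 1.03 and 0.64. *Ube2m* (adjusted p = 0.0524), *Ube2q2* (0.0625) and *Ube2j1* (0.0819) then no longer passed.

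The share of each gene in the E2 transcript pool is given as a description, with no test. *Ube2l3* made up 29.7% ± 3.28 (SD, n = 3) of the summed E2 FPKM in control, 37.9% ± 3.68 after MFN1-KD and 9.27% ± 1.58 after H3.3-KD, and went from rank 1 in both of the first to rank 4. *Ube2s* made up 0.407% ± 0.138 in control, 0.771% ± 0.455 after MFN1-KD and 18.1% ± 3.56 after H3.3-KD, where it ranked 1. *Ube2c* stood at 11.1% ± 0.691, 6.16% ± 1.73 and 13.3% ± 2.06. The groups with the lowest and the highest share did not overlap in any of the 3 genes.

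**Figure D4:**
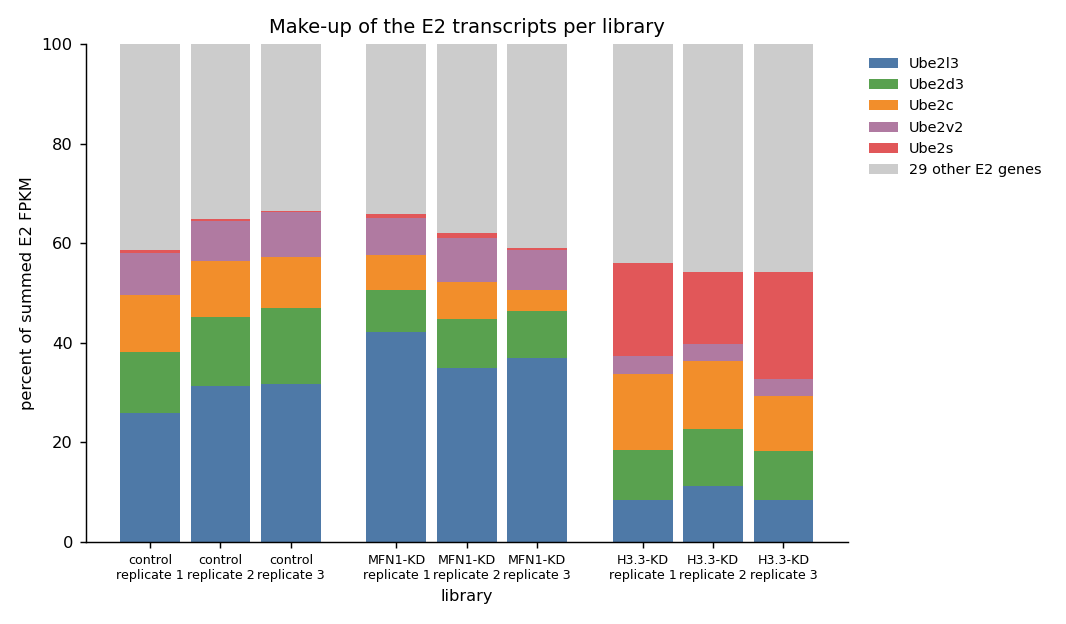
Percent of the summed FPKM of the 34 E2 genes (vertical axis) taken by single E2 genes in each of the 9 libraries (horizontal axis), as stacked bars. *Ube2l3* is the largest share in all control and MFN1-KD libraries (means of 29.7% and 37.9%), and *Ube2s* takes 14.3% to 21.4% of each H3.3-KD library.

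Both knockdowns were compared with the same 3 control libraries, so their fold changes are not independent, and the difference between them was tested directly by setting H3.3-KD against MFN1-KD. In limma, 11 of 31 E2 genes were higher in H3.3-KD than in MFN1-KD (35.5%, against 27.6% of all genes) and 3 were lower (9.68%, against 11%). *Ube2s* was higher by 4.78 ± 0.48 on the log2 scale (adjusted p = 8.81e-05), *Ube2g2* by 2.92, *Ube2v1* by 2.24, *Ube2j1* by 2.15 and *Ube2j2* by 2.13. *Ube2c*, which passed in neither comparison with control, was higher in H3.3-KD than in MFN1-KD by 1.20 ± 0.26 (adjusted p = 0.00453). *Ube2l3* was lower in H3.3-KD (-1.98 ± 0.19, adjusted p = 6.6e-05). *Ube2v2* (-1.17) and *Ube2q1* (-1.16) were the others that were lower. *Ube2d2a*, by contrast, had 83.1 to 127 FPKM in MFN1-KD and 115 to 151 in H3.3-KD, overlapping ranges with a difference of 0.34 (adjusted p = 0.366).

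In library by library terms, *Ube2j2*, *Ube2v1* and *Ube2c* lay above every control library after H3.3-KD and below each of them after MFN1-KD, and *Ube2l3* lay the other way round. A further 7 genes, *Ube2e1*, *Ube2d2a*, *Ube2d1*, *Ube2q2*, *Ube2g1*, *Ube2k* and *Ube2n*, lay above every control library in both knockdowns, and 0 lay below in both. The share of all genes with each of these joint patterns was not computed. Because both knockdowns share their control libraries, the counts are a description and no trait of the E2 genes. *Ube2d1* no longer differed between the knockdowns at the threshold without MFN1-KD replicate 1 or 3 (adjusted p = 0.0541 and 0.0538) or H3.3-KD replicate 1 or 2 (0.0883 and 0.0778), and *Ube2q1* without H3.3-KD replicate 2 or 3 (0.0543 and 0.0601). The *Ube2c* difference became -0.11 once the trend over GC content and length was removed.

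Other genes of the cascade are given by count, beside the 21.8% of all genes that were higher and the 9.12% that were lower in H3.3-KD, and no enrichment was tested. Of 8 E1 genes tested, 1 was higher: *Sae1*, a subunit of the SUMO E1, went from 79.9 ± 22.1 FPKM in control to 268 ± 23.2 in H3.3-KD (log2 fold change 1.77, adjusted p = 0.00129) and to 32.1 ± 9.69 in MFN1-KD, where it was the 1 E1 gene that was lower (-1.29, adjusted p = 0.0419). Of 5 E2-type genes outside the symbol rule, *Cdc34*, the E2 of SCF ligases, rose from 45.4 ± 8.29 to 178 ± 10.6 FPKM (1.96, adjusted p = 0.000205), and 2 fell, among them *Atg10*, the E2-like enzyme of autophagy, from 30.9 ± 9.34 to 6.05 ± 2.63 FPKM (-2.20, adjusted p = 0.00168). Of 10 genes of ubiquitin and ubiquitin-like proteins, 1 rose and 4 fell, among the latter *Nedd8*, from 648 ± 141 to 209 ± 9.46 FPKM (-1.60, adjusted p = 0.000461).

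Single ligases changed in both directions. Of 13 cullins, RBX proteins and neddylation ligases, 3 rose and 3 fell in H3.3-KD. *Rbx1*, the RING subunit that recruits the E2 to most cullins, fell from 776 ± 104 to 250 ± 36.3 FPKM (-1.63, adjusted p = 0.000278), and *Dcun1d3*, a neddylation co-ligase, rose from 4.56 ± 1.48 to 16.1 ± 4.58 FPKM (1.62, adjusted p = 0.0121). Of 21 E3s or partners that work with single E2s, 8 rose and 2 fell. The SUMO ligase *Pias4* rose from 4.29 ± 1.40 to 69.8 ± 13.97 FPKM (3.76, adjusted p = 7.01e-05), and *Ranbp2*, a nuclear pore protein with SUMO ligase activity, fell from 23.9 ± 7.44 to 7.15 ± 0.513 FPKM (-1.58, adjusted p = 0.00227). In MFN1-KD the single call in this list was *Stub1*, the chaperone-linked ligase CHIP, which fell from 28.7 ± 0.576 to 6.44 ± 5.20 FPKM (-2.27, adjusted p = 0.0377). The calls there were 0 of 5 for the E2-type genes outside the symbol rule, 0 of 10 for the ubiquitin genes and 0 of 13 for the cullin list, with 2, 0 and 5 higher and 1, 2 and 0 lower at an unadjusted p under 0.05. Of all genes, 9.21% were higher and 14.04% lower at that unadjusted p, and 1.15% and 2.2% at an adjusted p under 0.05. Set directly against MFN1-KD, H3.3-KD had 1 gene higher and 1 lower of the 8 E1 genes, 1 and 2 of the 5 E2-type genes, 1 and 2 of the 10 ubiquitin genes, 8 and 5 of the 17 APC/C genes, 0 and 4 of the 13 in the cullin list (1 and 4 at an unadjusted p under 0.05) and 8 and 3 of the 21 E3s, where 27.6% of all genes were higher and 11% lower. *Rbx1* stood at 1114 ± 120 FPKM in MFN1-KD and was lower in H3.3-KD (log2 difference -2.16, adjusted p = 4.54e-05), and *Uba6*, the E1 of UBE2Z, fell from 11.1 ± 3.38 to 3.98 ± 1.19 FPKM between these groups (-1.27, adjusted p = 0.0151).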

How the data were processed

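RNA-seq of 9 libraries was used, 3 for each group of 8-cell embryos (control, MFN1-KD, H3.3-KD), grouped by their titles. Reads were trimmed (cutadapt 1.16) and aligned to mm10 (STAR), as the submitters' processing notes name. The authors deposited FPKM per gene symbol, that is, fragments scaled to gene length and library size, with 2 decimals. The program that made FPKM, its annotation and its strand setting are not given in the sources used here. No counts were used. The authors tested with DESeq2, which needs counts, and edgeR had likewise been planned only for counts. The study's methods give 10 embryos per group and the labels 5 to 10. Low values lay in steps (79.6% to 85.8% of them within 0.25 fragment of a whole number), which imply about 15700000 to 22000000 fragments per library. No interval from counts is given.

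FPKM was transformed as log2(FPKM + 1), and 13011 genes averaging 1 FPKM or more were kept. A linear model with 1 coefficient per group was fitted to all 9 libraries in limma 3.58.1 (trend and robust options) under R 4.3.3, and Benjamini-Hochberg adjustment ran over all genes tested. An exact permutation test of 3 libraries against 3 cannot go below a p of 0.1, so none is given. Positions, transcript lengths and GC content came from GENCODE release M21 (GRCm38), in which all 34 E2 genes were found. Of these, 9 share exon bases with another gene, 7 of them on the opposite strand. Without a stated strand setting such reads cannot be told apart. Promoters came from RefSeq (GRCm38.p6). Protein sequences are not used here. Tables were made with pandas 2.3.3 and numpy 2.4.6, and figures with matplotlib 3.10.9, in Python 3.11.15. The limma fit was tested on simulated data.

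The E2 genes and all lists (E2 roles, E1s, E3s and others) were chosen with earlier results of these data known. Values per library are given for E2 genes with an adjusted p under 0.05 (at most the 12 smallest p per comparison, the others in short), for the 3 highest and 3 lowest control levels above 0 and for the smallest p in each role. From the other lists the smallest p in each direction is named. Results that name 1 E2 gene and 1 gene of the other lists are not reported here, although both genes are in the counts. *Cdc20* and further E2 genes in ratios were added after their values were seen. Alternatives were other scalings, filters, a pseudocount of 0.1, the replicate number as a block, a fit of the 6 libraries of each comparison alone, removal of the trend over GC content and length by splines with 5 degrees of freedom, no robust option, and each library left out.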

Additional observations from a re-analysis of the deposited data

Results flagged for a closer look

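The 14 E2 genes below were picked out because their effect against control differed between H3.3-KD and MFN1-KD, tested as the direct difference of the 2 knockdowns in limma at a Benjamini-Hochberg adjusted p under 0.05. The log2 differences, H3.3-KD relative to MFN1-KD, were 4.78 for *Ube2s*, 2.92 for *Ube2g2*, 2.24 for *Ube2v1*, 2.15 for *Ube2j1*, 2.13 for *Ube2j2*, 2.09 for *Ube2o*, 1.95 for *Ube2z*, 1.91 for *Ube2m*, 1.27 for *Ube2d1*, 1.20 for *Ube2c* and 0.94 for *Ube2e1*. They were -1.16 for *Ube2q1*, -1.17 for *Ube2v2* and -1.98 for *Ube2l3*. In all 14 genes every H3.3-KD library lay on 1 side of every MFN1-KD library. The genes were picked by a test on these same libraries, so that separation is no further support. Its share over all genes was not computed. Groups of 3 libraries were not tested for single outlying libraries.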

How the results depend on the processing

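No counts were used, so neither count noise nor a detection limit is known, and genes near 1 FPKM are the least certain. In H3.3-KD against control, 10 of the 16 E2 calls (*Ube2s*, *Ube2l3*, *Ube2g2*, *Ube2z*, *Ube2v2*, *Ube2e1*, *Ube2j2*, *Ube2v1*, *Ube2o* and *Ube2d2a*) kept direction and threshold under all 18 alternatives, and *Ube2d1* under the 17 that tested it (it was below the filter of 10 FPKM). E2 genes lower in H3.3-KD (3 as reported) numbered 5 with median-ratio scaling, 7 with upper-quartile scaling, 5 with only the 6 libraries compared and 6 with the GC and length trend removed. At the study's threshold they numbered 5, 5 and 6 (2 as reported) under both scalings and the trend removal, which also left 7 higher (12 as reported). Over all genes, 2841 were higher and 1187 lower as reported, 2078 and 1778 with median-ratio scaling, 1888 and 1968 with upper-quartile scaling and 1482 and 1567 with the trend removed. E2 genes lower in H3.3-KD than in MFN1-KD (3) numbered 7 and 8 under the 2 scalings. Between the knockdowns, *Ube2d1* and *Ube2e1* were also lost under both scalings, and *Ube2m*, *Ube2o* and *Ube2v2* with the trend removed. In MFN1-KD, the 1 E2 gene higher became 0 with no filter, a pseudocount of 0.1, only the 6 libraries, the replicate block, the trend removed or no robust option, and 2 with a mean of at least 10 FPKM. Lower E2 genes (0) became 1 with the trend removed (*Ube2d3*), and at the study's threshold 1 with a pseudocount of 0.1 and 2 with the trend removed, which left 0 higher. The median of the E2 genes minus that of all genes was -0.12, 0.33 and 0.38 with no filter in MFN1-KD, H3.3-KD and between them (0.07, 0.15 and 0.00 as reported), and 0.39 and 0.23 in the latter 2 with the trend removed. The summed control level was 5258 with upper-quartile scaling. Directions turned for *Ube2a* in MFN1-KD (0.0038 with the trend removed, and from -0.49 to 0.032 with 1 library left out, the latter without MFN1-KD replicate 1) and for *Ube2c* between the knockdowns (-0.11 with the trend removed). The causes were not tested.

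Leaving out 1 library at a time gave 0 to 1 E2 genes higher and 0 to 0 lower in MFN1-KD (1 to 2 and 0 to 1 at the study's threshold), 11 to 14 higher and 2 to 5 lower in H3.3-KD (12 to 12 and 2 to 2), and 10 to 11 higher and 2 to 4 lower between them. The median differences ranged from 0.02 to 0.18 in MFN1-KD, 0.11 to 0.24 in H3.3-KD and -0.07 to 0.15 between them, and the control sum from 4654 to 4966 FPKM. Whether the replicate numbers in the labels pair the libraries was not tested. The r of deviations from group means was -0.053 to 0.158 for same-numbered libraries and -0.116 to 0.072 for differently numbered ones. With the number as a replicate block, 0 E2 genes were higher in MFN1-KD (*Ube2d2a*, adjusted p = 0.0679), 12 higher and 3 lower in H3.3-KD (*Ube2g1* lost), and 11 higher and 3 lower between them, while all genes called in MFN1-KD went from 150 higher and 286 lower to 6 and 25.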
